A study of Arabidopsis thaliana with 7 samples.

Results

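Partial blue sites are places in the Arabidopsis genome where the fusion protein HY5-YFP gave a ChIP-seq peak in 1 or 2 of 3 blue light libraries and in no red light library. Peaks of the 6 lists were joined where they shared at least 1 bp, and 2190 of the 10233 sites so formed met this rule (21.4%). They were thus chosen by the peak calls, which rest on the tags of a peak and on its folds over the mock and the surroundings. Those values are given below as a description, without tests. The blue light plants and the red light plants were of the Wassilevskija accession, carried the hy5-ks50 T-DNA insertion and expressed HY5-YFP. After entrainment to light-dark cycles they spent 52 hours under blue or under red light (15 µmol per m2 per s), and whole plants aged 10 days were fixed. Each light had 3 biological replicates, and 1 mock pulldown used a mix of the blue light replicates and beads that carried no antibody. Plants of both lights carried the mutation and the fusion, and the sources used here do not give the promoter of the fusion. A pulldown from plants without the fusion was not analysed here.

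HY5 is a bZIP transcription factor that binds short DNA motifs with an ACGT core and promotes the development of seedlings in light. It is marked for degradation by COP1 in darkness and is stabilised when photoreceptors, cryptochromes for blue and phytochromes for red light, hold COP1 back. In ChIP-seq, a peak caller reports a site only where the pulled-down DNA passes fixed bars over a control and over its surroundings. A site is then either listed or missing in a library, and a missing site has no value.

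Blue libraries held 7.99 to 11.7 M tags (1 M is 1e6) and red ones 10.6 to 11.9 M. The 3 blue lists held 8524 to 8888 peaks and the 3 red lists 4027 to 5672. All peaks were called against the one mock from blue light plants, and red light replicate 1 was called with peak windows of 549 bp, the rest with 306 to 348 bp.

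Partial blue sites lay low in their lists, with a few exceptions. Their peaks had a median of 127.5, 125.6 and 130.1 tags per 10 M in blue light replicates 1, 2 and 3, against 236.3, 231.4 and 235.2 tags for the other peaks of the same lists. The mean of these medians was 127.7 ± 2.26 tags for partial sites and 234.3 ± 2.57 for the others (SD, n = 3). In the 3 lists, 93.8%, 93.5% and 91.4% of them stood below the median height of the list. The name weak thus held for most of the sites and not for all, since the highest had 1012 tags and the lowest 50.5. Sites called in all 3 blue lists and no red list, which lie just outside the rule, stood at a median of 157.2 tags per blue light peak. The 468 sites in 1 or 2 blue lists with at least 1 red peak as well, also just outside, had 148.9, and those of all 6 lists 359.0.

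**Figure D1:**
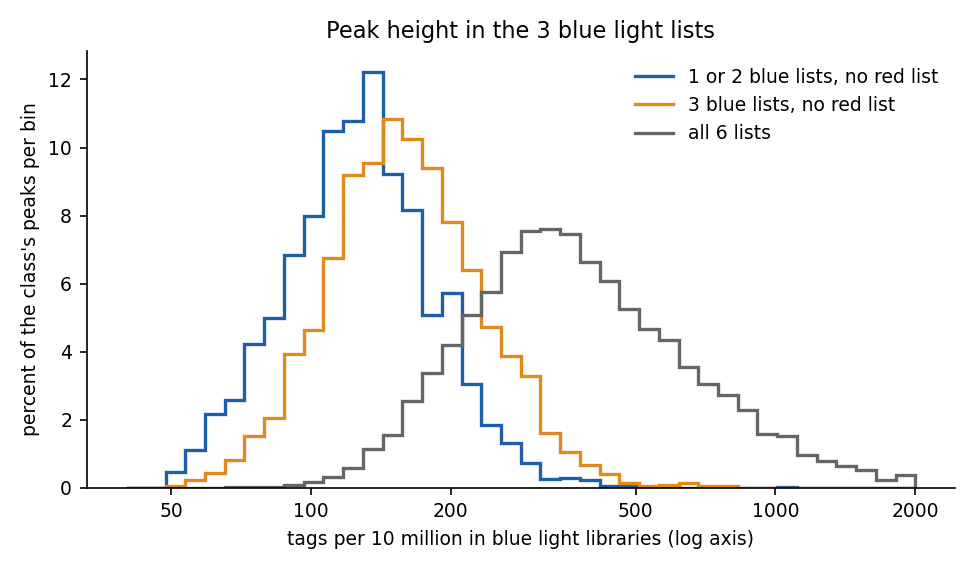
Distribution of peak heights in the 3 blue light lists for sites in 1 or 2 blue lists and no red list, for sites in all 3 blue lists and no red list, and for sites in all 6 lists. The x axis gives tags per 10 M on a log scale up to 2000 (higher peaks of sites in all 6 lists are not drawn) and the y axis the percent of each class's peaks per bin; the medians are 127.6, 157.2 and 359.0 tags.

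A single list held 1290 of the members (58.9%) and a pair of lists held 900 (41.1%). Replicate 3 alone held 547 sites, replicate 1 alone 401 and replicate 2 alone 342. Replicates 1 and 3 shared 364 sites, replicates 1 and 2 shared 274 and replicates 2 and 3 shared 262. Replicate 3, the shallowest library at 7.99 M tags, thus had the most members in its list (1173), followed by replicate 1 (1039) and replicate 2 (878). They made up 13.2%, 11.9% and 10.3% of these lists. Sites of a single list were about as high as those of a pair, with medians of 123.8 and 130.1 tags.

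**Figure D2:**
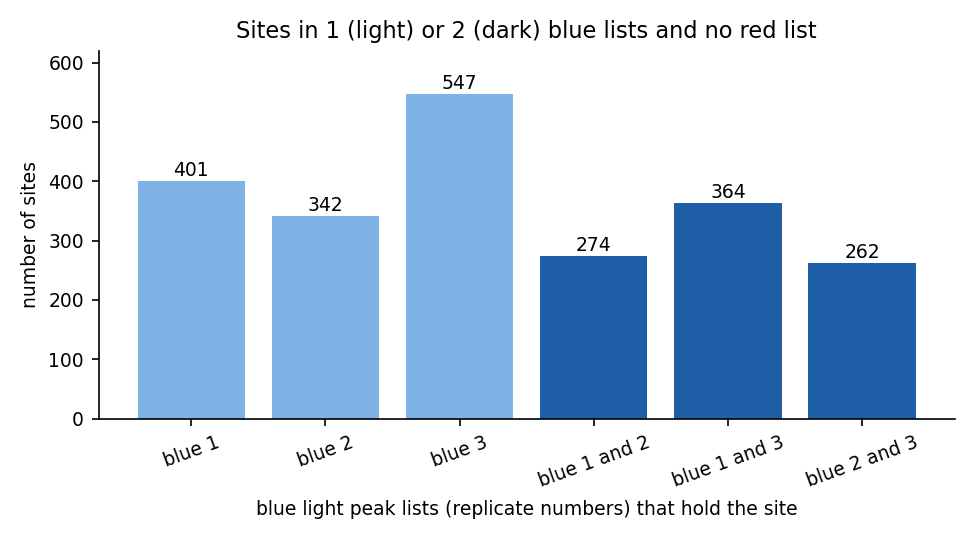
Number of sites by the blue light lists that hold them, with no red list in any case. The bars on the left are sites of 1 list, led by replicate 3 with 547, and those on the right sites of 2 lists, led by replicates 1 and 3 with 364.

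Where a pair of blue libraries called the same member, their tags were close. The larger value was 1.08 times the smaller one at the median site and 1.21 times at the 90th percentile, and 899 of 900 sites were within 1.5 times. The median log2 ratio between libraries was at most 0.01 in size for each of the 3 pairs of replicates. A median member peak stood for 149 tags as sequenced in replicate 1 (95% Poisson interval 126 to 175), 127 in replicate 2 (106 to 151) and 104 in replicate 3 (85.0 to 126). These intervals cover counting error only. Both peaks of a pair had passed the same bars, and no such ratio is given here for other sites. Agreement between replicates was thus not tested. The library without a peak at a site has no value there, so how far it fell short cannot be read from the lists.

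The partial sites lay close to the bars of the peak caller. To be listed, a peak had to exceed both the mock and its surroundings of 10000 bp by 4-fold. Of their 3090 peaks, 47.4% were under 5-fold over the mock, 58.3% were under 5-fold over the surroundings, and 86.5% were under 5-fold over one or the other. By list the last share was 87.2%, 87.5% and 85.2%, against 19.4%, 21.5% and 18.5% for the other peaks of the lists. Among the peaks of sites called in all 6 lists it was 0.890%. For sites called in every blue list it was 51.7% where no red list held them and 22.1% where some red lists did. Sites in some but not all blue lists, with a red peak as well, had 71.0%. Sites in some but not all red lists and no blue list had 93.2%, more than the members. A place near the bars was thus not particular to the members. Only 417 of the 3090 member peaks cleared both folds by that margin. The 870 peaks near the mock bar alone had a median of 21 mock tags, and the 1208 near the surroundings bar alone had 13. Among those near the surroundings bar alone, 50.4% had a taller peak of the same list within 5000 bp, against 12.5% of those near the mock bar alone. The share was 39.5% for peaks near both bars, 21.6% for those near neither and 33.8% for all member peaks. It is not given here for the other peaks of the lists. Tags of such a neighbour count in the surroundings, so this split is partly built into the fold. The part of taller neighbours in the calls was not tested.

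**Figure D3:**
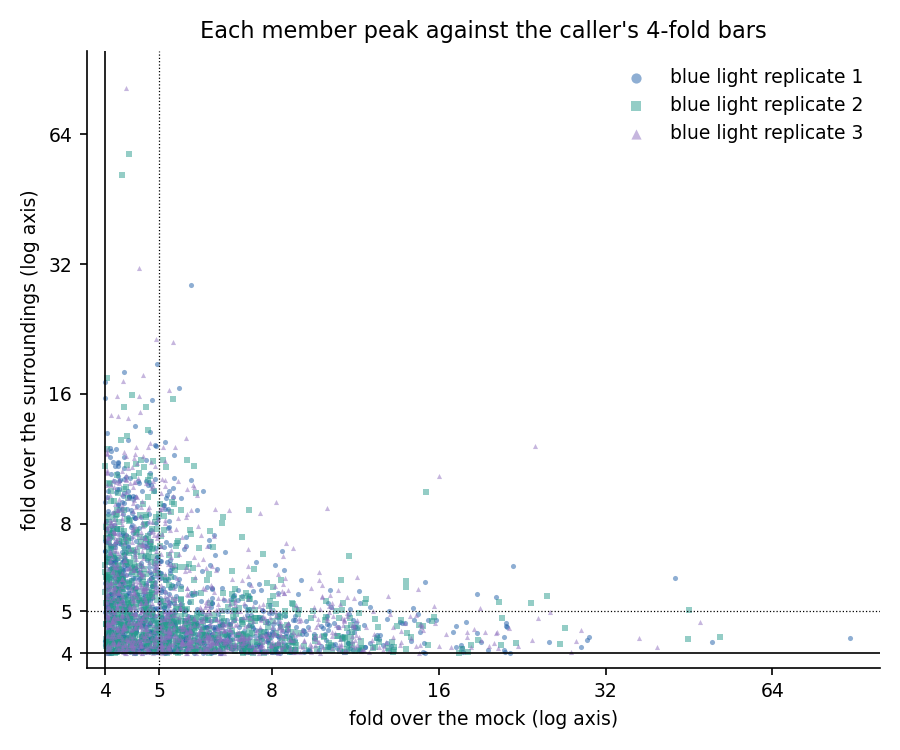
Every member peak, placed by its fold over the mock (x axis) and over its surroundings (y axis), both on log scales, with 1 point per peak and library. Solid lines mark the 4-fold bars and dotted lines 5-fold; the points run along the 2 bars, and 417 of 3090 lie above both dotted lines.

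Among the members with the highest mock signal, some stood far above their surroundings but close to the bar over the mock. Beside HT1, a kinase gene of the stomatal response to carbon dioxide, the site at positions 23088224 to 23088581 of chromosome 1 had 478.5 tags in blue light replicate 1 and 451.7 in replicate 3. It was 18.8-fold and 17.7-fold over its surroundings in these libraries, but 4.96-fold and 4.68-fold over a mock of 66 tags, the highest of any member. High mock signal was also found at a site inside AT3G57110 and at sites beside NAC105, a NAC transcription factor, MC7, a metacaspase, and AT3G19390. The mock held 45 to 55 tags at these 4 sites, and their folds over it ran from 4.05 to 4.82. The site at CBF1, described below, tied with AT3G19390 at 45 mock tags but was 7.55-fold over the mock. AT3G19390 was 5.25-fold and 5.22-fold over its surroundings in replicates 1 and 3. NAC105 had 366.4 and 343.2 tags in replicates 1 and 2 at 10.4-fold and 10.3-fold over its surroundings, and MC7 had 310.7 and 306.6 tags in replicates 1 and 3. The lowest fold over the mock, 4.00, was shared by several member peaks. Among them were a site inside AT1G38131 in replicate 1 (70.2 tags) and one beside CAC3 in replicate 2 (210.6 tags). The highest, 88.4, was that of a site beside AT4G31890 in replicate 1, with 129.3 tags per 10 M and 1 mock tag. Mock tags are not scaled to 10 M, so a fold is not the printed tags divided by the printed mock tags. The site beside AT4G31890 was 4.35-fold over its surroundings.

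Other tall members stood close to a taller site. Inside the overlapping genes CYP81G1, a cytochrome P450, and MYBR1, a MYB transcription factor, a site had 584.4 tags in replicate 2 and 614.4 in replicate 3 at positions 26855249 to 26855729 of chromosome 5. It was 17.4-fold and 18.3-fold over the mock, but 4.01-fold and 4.13-fold over the surroundings, with a site of all 6 lists 1115 bp away that reached 1295 tags in replicate 3. At CBF1, a regulator of cold tolerance, a site of replicate 3 alone had 496.7 tags, with 45 mock tags, and was 4.05-fold over its surroundings. A taller peak of 1248 tags lay within 5000 bp in the same library. MYB11, a regulator of flavonol synthesis, had 351.1 tags in replicate 2 alone (4.57-fold over the surroundings) near a peak of 1023 tags. HFR1, a bHLH factor that promotes responses to light, had 343.2 tags in replicate 1 alone (4.51-fold), next to a site of all 6 lists with 619.7, 702.1 and 591.8 tags in blue light. BXL2, a beta-xylosidase gene, held 390.6 and 412.9 tags in replicates 2 and 3. A site near CAX9, a cation exchanger gene, had 380.1 and 362.9 tags in replicates 1 and 3. Its midpoint lay inside the neighbouring gene AT3G14067, 75 bp from an end of CAX9. The folds over the surroundings were 4.16 and 4.33 at BXL2 and 4.42 and 4.32 at the site near CAX9. AT3G01516 had 440.1 and 410.4 tags in replicates 2 and 3, with a site of all 6 lists 1204 bp away. In replicate 1 alone, AT5G40720 had 301.3 tags and EXGT-A3, a xyloglucan-modifying enzyme gene, 286.8, each beside a site of all 6 lists (455 and 336 bp away). A second site near CAX9 had 322.4 tags in replicate 2 alone.

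Not every such member had a listed neighbour. PETE1, which encodes a plastocyanin of photosynthetic electron transport, had 300.6 and 290.3 tags in replicates 2 and 3, at 4.03-fold and 4.06-fold over the surroundings. LBD37, a LOB domain regulator, had 327.0 and 361.6 tags in replicates 1 and 3, at 4.07-fold and 4.87-fold. No other peak of the calling libraries had its centre within 5000 bp of either. The same held for AT5G10350 (351.6 tags in replicate 3) and AT1G21680 (345.1 in replicate 2).

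Some of the tallest members lay next to a site that held the peaks of other libraries. The highest of all, beside AT5G59960 at positions 24145257 to 24145597 of chromosome 5, had 1012 tags in replicate 3 alone and was 12.1-fold over its surroundings. At 142 bp from it, another site reached 1035 tags in the first blue light replicate and 1081 in the second. Under red light it had 1112, 671.6 and 713.4 tags in replicates 1 to 3. All 6 libraries thus had a peak in that stretch. NPQ4, which encodes the PsbS protein of photoprotection, had a pair of members 142 bp apart on chromosome 1. The site at positions 16869884 to 16870233 held 382.6 and 370.8 tags in replicates 1 and 2, the other, at 16869401 to 16869741, 349.1 tags in replicate 3. There all 3 blue libraries had a peak and no red list did. Both lay within 5000 bp of a taller peak, of 1012 tags for the first and 878.4 for the other. At AT1G21780 a member with 411.4 and 381.6 tags in replicates 2 and 3 lay 2 bp from a site with 410.0 tags in blue light replicate 1 and 391.1, 229.6 and 249.9 in the red libraries. At AT1G79640 a member with 288.8 and 304.0 tags in replicates 2 and 3 lay 112 bp from a site held by blue light replicate 1 (280.8 tags) and all 3 red libraries. In all, 58 members (2.65%) had a peak of every blue list that lacked them with its centre within 700 bp, which is about the closest spacing of peaks in a blue list. The other 2132 had no such set of blue peaks. A red peak lay that near to 27 members (1.23%).

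**Figure D4:**
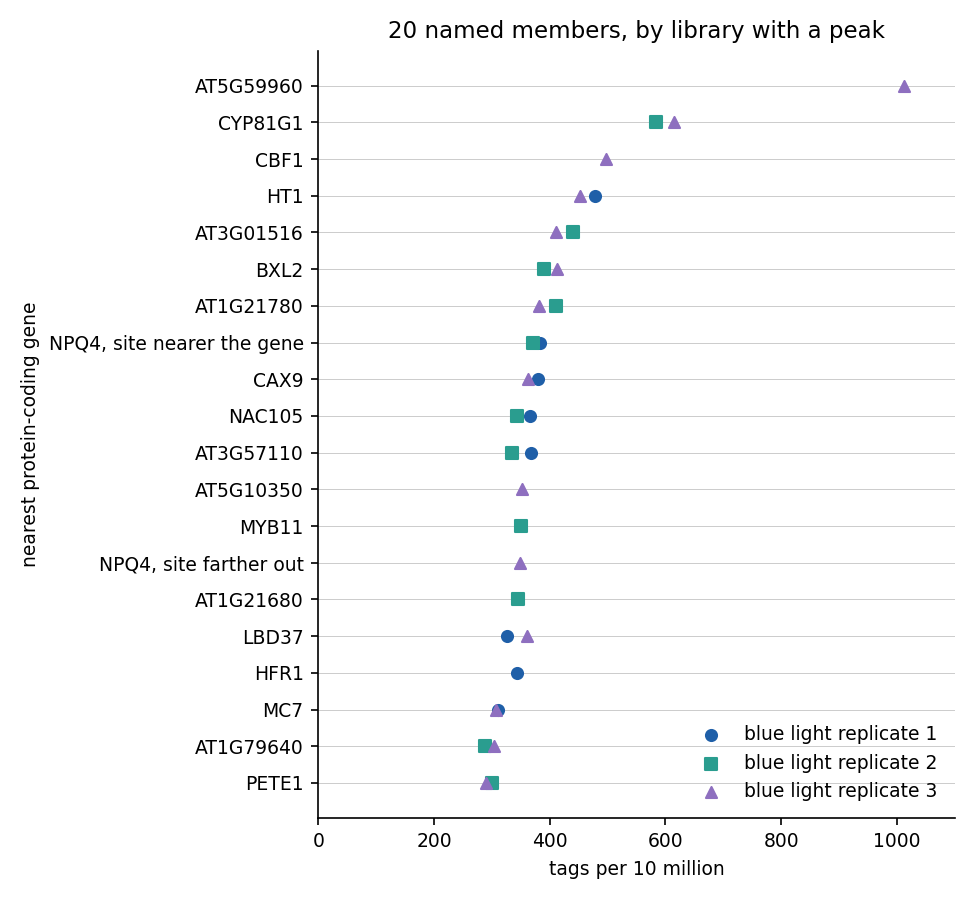
Tags per 10 M (x axis) of 20 named members (rows, by nearest protein-coding gene), with 1 point for each blue light library that has a peak there. The site beside AT5G59960 stands alone at 1012 tags, and where 2 libraries called a site their points lie close together.

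Position beside genes was not used by the rule. A peak counted as lying at a gene end when its midpoint fell within 1500 bp outward or 500 bp inward of either end of a protein-coding gene. In blue light replicates 1, 2 and 3, 87.4%, 88.7% and 89.3% of the member peaks lay at a gene end, against 89.9%, 89.7% and 89.5% of the other peaks. The difference was -1.25 ± 1.13 percentage points (SD, n = 3), lower in 3 of 3 lists, and the exact two-sided permutation test over the signs gave p = 0.25, the smallest that 3 lists allow. When a peak had to be 8-fold over the mock it turned to 2.56 points. More of the member peaks had their midpoint inside a gene, 47.1% ± 1.41 against 43.0% ± 0.242 of the other peaks of the lists (SD, n = 3; 3 of 3 lists, not tested). Counted by site the share was 47.3% for members and 44.2% for all sites. It was 45.3% for sites in 1 or 2 blue lists with a red peak and 43.3% for those in all 3 blue lists and no red list. Sites in 1 or 2 red lists and no blue list had a higher share than the members, 52.0%. On the 5 chromosomes the members followed all sites, with 24.1% on chromosome 5 against 23.0% of all sites as the widest gap. A tRNA gene was the nearest gene of any kind at 1.87% of the members and 1.2% of all sites, a pseudogene at 1.83% of the members and 1.29% of all sites. Another site lay within 1500 bp of 18.2% of the members, against 16.1% of all sites. The share was 15.5% for sites in all 3 blue lists and no red list, 30.3% for those in 1 or 2 blue lists with a red peak and 11.5% for those of all 6 lists. Sites in 1 or 2 red lists and no blue list had the highest share of these, 44.7%.

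The mirror class, with 1 or 2 red lists and no blue list, had 152 sites (1.49% of all). Its peaks numbered 5, 95 and 76 in red light replicates 1, 2 and 3. The order of these numbers turned round with equally long lists: when each list was reduced to its 4027 highest peaks, the length of the shortest, there were 267 partial blue sites and 1057 partial red sites. With full lists, 88.5% ± 0.961 of the peaks of partial blue sites lay at a gene end and 81.5% ± 2.36 of those of partial red sites (SD, n = 3 each). The blue and red values did not overlap (87.4% to 89.3% in blue, 80.0% to 84.2% in red). The other peaks of red light replicates 1, 2 and 3 stood at 89.9%, 89.4% and 89.3%, and all sites at 89.3%. The partial blue share thus lay near the general one, and the partial red share lay below it. A low share was not particular to partial red sites. Counted by site it was 82.2% for them and 84.4% for sites in 1 or 2 blue lists with a red peak. Sites in all 3 blue lists and no red list had 91.0%. For partial blue against partial red sites, a two-sided exact permutation over libraries returned p = 0.1. That is the lowest value possible with 3 in each light. With equally long lists the difference turned from 6.97 to -2.69 percentage points (exact permutation p = 0.2), and with windows of 500 bp outward and 200 bp inward it was 34.7 points. With windows of 3000 bp outward it was 2.04 points (exact permutation p = 0.6), and leaving out 1 library gave 3.23 (without blue light replicate 1) to 13.9 points (without blue light replicate 2), with 10.7 points without red light replicate 2. Replicate 1 of the red light gave only 5 peaks to its share.

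Partial blue sites reached 3139 of 27432 protein-coding genes at a gene end (11.4%). Of these genes 2486, or 9.06% of all, had no other site in any list, and 218 also had a site of all 6 lists. Of 167 genes in 9 lists on light, the clock, plastids, flavonoids, growth, hormones and cold, 22 had a partial site (13.2%), against 4 of 34 control genes of housekeeping, seed and flower (11.8%). Both shares lay near the 11.4% of all genes. A site called in all 6 lists was found at 74 of the light and clock genes (44.3%) and 9 of the control genes (26.5%), against 19.4% of all protein-coding genes.

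Of 30 clock genes, 5 had a partial site (16.7%). TOC1, a pseudo-response regulator that represses morning genes, had one of 209.6 and 216.5 tags in replicates 2 and 3, besides its site of all 6 lists with a blue mean of 651.0 tags. A site of 230.2 tags in replicate 3 lay at CDF1, a repressor of flowering, 4.02-fold over its surroundings. LWD2, a WD-repeat protein of the clock, was reached by a site of 136.5 tags in replicate 2 that lay inside GAPA. The partial site was the one listed site of ZTL, a blue light receptor of the clock (119.7 tags in replicate 2, inside the gene), and of RVE6, a MYB-like activator (95.9 and 99.9 tags in replicates 1 and 2). Over the mock, ZTL was 4.09-fold, and RVE6 was 4.1-fold in replicate 1 and 5.25-fold in replicate 2.

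Among 28 regulators of photomorphogenesis 4 had a partial site (14.3%), HFR1 above and 3 genes with no other site. FHY3, a transposase-derived activator in phytochrome A signalling, had 185.2 tags in replicate 3, BBX22, a B-box partner of HY5, 175.0 in replicate 2, and DDB1A, a subunit of ubiquitin ligase complexes, 105.1 in replicate 3. The BBX22 site lay inside the neighbouring gene NADK3. Of 10 photoreceptors PHOT1, a phototropin, had a site of 106.4 tags in replicate 3 (10.0%).

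Antenna and Rubisco genes had 4 partial sites in 19 genes (21.1%), each in a single list and each the gene's one listed site. LHCA2 of the photosystem I antenna had 260.2 tags in replicate 1, at 4.15-fold over its surroundings with a peak of 561.5 tags within 5000 bp. LHCB5 of the photosystem II antenna had 130.5 tags in replicate 2, LHCB3 of the same antenna 87.6 in replicate 3, and LHCA3 82.6 in replicate 3. LHCA3 and LHCB3 were 4.03-fold and 4.28-fold over the mock. At 3 of the 19 genes (15.8%) a site of all 6 lists was found. Of 21 chlorophyll and plastid genes 2 had a partial site (9.52%). SIG2, a plastid sigma factor, had 126.6 and 110.1 tags in replicates 2 and 3, and CRD1, a cyclase of chlorophyll synthesis, 112.1 and 125.6 in replicates 1 and 2.

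Of 24 flavonoid genes 2 had a partial site (8.33%), MYB11 above and C4H, an early enzyme of the phenylpropanoid pathway, with 179.0 and 163.9 tags in replicates 2 and 3. Of 15 growth genes PAR1, an inhibitor of PIF factors, had 152.3 tags in replicate 2 (6.67%). It was 11.6-fold over the mock and 4.26-fold over the surroundings. Of 12 hormone genes IAA7, an auxin response repressor, had 121.6 and 122.6 tags in replicates 2 and 3 (8.33%). Of 8 cold genes 2 had a partial site (25.0%), CBF1 above and ICE1, an activator of CBF genes, with 138.4 tags in replicate 2 at 4.12-fold over the mock. The control genes were ACT2, GAPC2 and TUB2 of 13 housekeeping genes, SHP1 of 10 floral genes and none of 11 seed genes, with 65.1 to 170.2 tags.

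**Figure D5:**
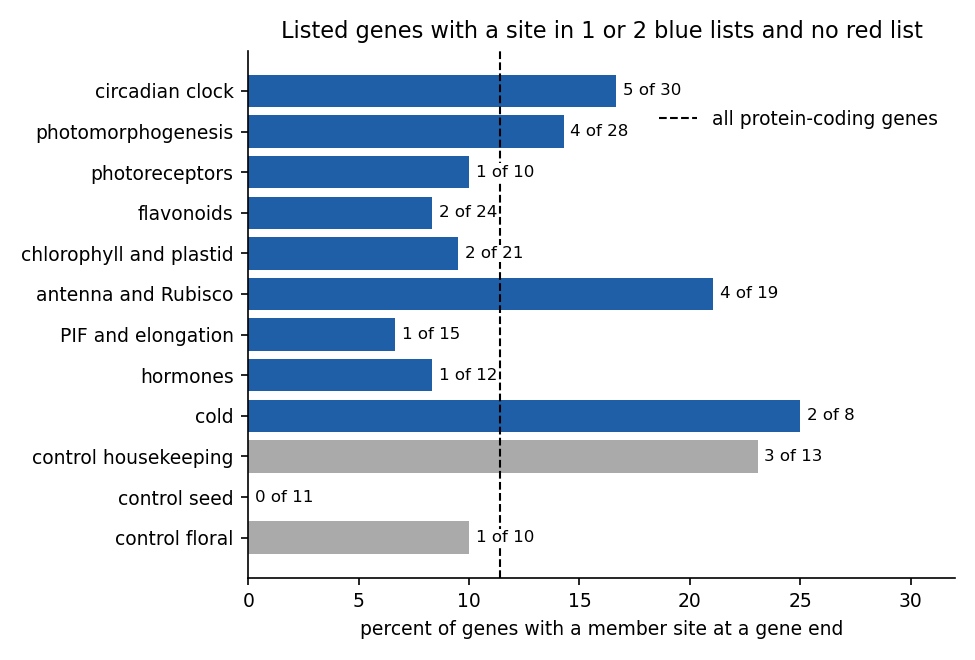
Percent of the genes of each list with a partial blue site at a gene end (bars, x axis), with the count beside each bar and control lists in grey. The dashed line is the 11.4% of all protein-coding genes; light-related lists lie on both sides of it, from 6.67% to 25.0%, and so do the control lists.

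Gene families taken by symbol gave shares on both sides of the 11.4% too. Expansins, which loosen cell walls, had a partial site at 7 of 31 genes (22.6%) through 6 sites, since EXPA24 and EXPA25 share one. EXPB3 was the highest with 242.2 and 217.7 tags in replicates 1 and 3, followed by EXPA10 with 204.0 in replicate 3 and EXPA1 with 180.0 and 168.9 in replicates 2 and 3. PUB ubiquitin ligases had 5 of 22 (22.7%), with PUB25 at 218.5 tags in replicate 2 the highest. A site of all 6 lists was found at 3 expansin genes (9.68%) and 8 PUB genes (36.4%), against 19.4% of all protein-coding genes. WRKY transcription factors had 8 of 67 (11.9%), led by WRKY57 with 235.4 tags in replicate 2. WRKY70, a regulator of defence, had 161.2 and 141.4 in replicates 2 and 3. WRKY67, with 51.4 tags in replicate 2, was among the 3 lowest members of all. UGT glycosyltransferases had 3 of 58 (5.17%), where UGT73B3 and UGT73B2 share a site of 168.6 and 203.7 tags in replicates 1 and 2. Heat shock proteins had HSP81-2 of 20 (5.00%, with 133.9 tags in replicate 3), glutathione transferases GSTU18 of 48 (2.08%, with 264.0 and 276.5 tags in replicates 2 and 3), and SAUR genes none of 16. Of 326 miRNA genes 20 had a partial site within the same window (6.13%). The 11.4% is of protein-coding genes and is no yardstick for this share, since the inward part of the window stops where a short gene ends. MIR835 was the highest with 191.8 and 196.4 tags in replicates 2 and 3. MIR166a, whose product targets class III homeodomain genes, had 121.5 and 118.9 in replicates 1 and 3, and MIR156b, of the family that targets SPL genes, 137.0 and 116.7 in replicates 1 and 2.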

How the data were processed

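Peak lists were made by the authors, per the file headers, with HOMER findPeaks in its factor style, library by library against the mock. Per the file headers, candidates passed a false discovery rate of 0.001, then a 4-fold ratio and a Poisson p-value of 0.0001, first against the mock and then against 10000 bp of surroundings. The submitters' processing notes name HOMER 4.9 and TAIR10. The sources used here name no aligner. The deposited signal is tags per 10 M of the library; multiplied by the library total, 100% of peaks came out as whole tags within 0.1. The authors' mock signal is unscaled, with 0.5 in place of 0. The deposited fold over mock and surroundings was used unchanged. The deposited p-value, score and focus fraction entered no printed result.

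Peaks were joined into sites in Python 3.11.15 with pandas 2.3.3. The join and the rule gave back all members of simulated lists. There, peaks had equal width, those of the same site always overlapped and neighbouring sites never touched. The check thus does not cover sites as close together as some of the members described above. In 1 pair of site and list, at no member, there were 2 or more peaks, and the highest was taken. Gene names and neighbours came from the RefSeq table of assembly TAIR10.1, which has no strand, so both gene ends were used and sites were placed only inside or between genes. All 201 listed loci were found. Positions are those of the peak lists. Families were taken from symbols and are not complete. No sequence of the build was at hand, so the planned motif count in promoters was not run. Shares of peaks were compared over libraries with exact two-sided permutation tests.

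The members, gene lists and tests were chosen with earlier results of these data known. Named were the 10 highest members by mean tags, the next 5 of 1 list and of 2 lists, the 3 highest of each list alone, the extremes of fold and mock signal, every listed gene with a member, and the highest of each family. Beyond that rule, values are given for all members of the gene lists, not just the 2 highest of each. EXPA10, EXPA1, WRKY70, WRKY67, MIR166a and MIR156b were chosen after their values were seen. Alternatives changed the join, the fold bar, the list length, the windows and the libraries.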

Additional observations from a re-analysis of the deposited data

How the results depend on the processing

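The number of partial blue sites stayed within 1.5 times of 2190 under a stricter overlap for joining, when peaks within 200 bp were joined and when a peak had to be 8-fold over the mock (1477 to 2298). Under the 8-fold bar the rule was applied anew to the 5380 sites then left of 10233. The 1477 sites are thus not those of the 2190 that clear that bar, since member peaks had a median of 5.09-fold over the mock. With equally long lists there were 267 partial blue sites, and the listed light and clock genes with such a site numbered 10 instead of 22. With windows of 500 bp outward and 200 bp inward 15 listed genes had one, and with windows of 3000 bp outward 30 did. Without 1 library the number of partial blue sites ran from 1369 (without blue light replicate 3) to 2381, and the listed genes from 13 (also without blue light replicate 3) to 24. With 2 blue lists left, a member is a site of 1 of them. The difference at gene ends between member peaks and other peaks of the blue lists turned from -1.25 to 2.56 percentage points under the 8-fold bar over the mock, and ran from -2.02 to -0.224 without 1 library. That between partial blue and partial red sites turned from 6.97 to -2.69 points with equally long lists. It was 2.04 with windows of 3000 bp outward, and ran from 3.23 (without blue light replicate 1) to 13.9 (without blue light replicate 2) without 1 library, with 10.7 without red light replicate 2. The cause of these shifts was not tested. With peaks within 200 bp joined it could not be computed, since red light replicate 1 then had no such peak. No promoter sequences were used, so the alternatives for the motif count were not run. With the replicate number as a block the difference of 6.97 points gave p = 0.25 in the exact permutation test, the smallest that 3 pairs allow. The same-numbered libraries share a number only: their deviations from the means of their light correlated at -0.04, -0.09 and 0.05 (Pearson, over 3557 sites). A library without a peak has no tag value at a site, which limits every statement on absence.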
